A study of Ananas comosus with 48 samples.

Results

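The miR159 family was represented by 6 mature sequences, miR159a-3p, miR159b-3p, miR159b-5p, miR159c-3p, miR159e-3p and miR159j-3p, chosen by name from 190 listed mature miRs. The list held 16 sequences whose first name is miR159. The other 10 held 12 counts in all, in 4 sequences, and 6 of them had no count in any library. The small RNA came from shoot apices of pineapple plants (Ananas comosus, cultivar 'MD1') grown in a commercial field. Each plant had received into its center either 50 mg of ethephon in 10 ml, an ethylene-releasing compound used to force flowering, or 10 ml of water as the control. Apices were taken at 8 samplings. Plants of the first were cut on the morning of the injection, and its label, 6 hours, marks the end of tissue processing. The others were taken on days 1 to 6 and on day 8, and their processing was done by noon, earlier in the day than that of the first. Each of the 16 groups had 3 libraries, each from a pool of 3 apices, so that 24 libraries stood for ethephon and 24 for water. Leaf primordia remained on the excised apex, so the tissue was not meristem alone, and the small RNA table gave no marker of a cell type to check it by.

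miR159 is among the oldest and most abundant plant miRs. In Arabidopsis it directs cleavage of mRNAs of GAMYB-like transcription factors such as MYB33 and MYB65, which act downstream of gibberellin in anthers and in the aleurone of seeds, and the loss of its main genes there gives stunted plants with curled leaves. miR319 arose from a common ancestor and differs from miR159 by few bases, but in Arabidopsis it acts mainly on TCP transcription factors that restrain leaf growth. The mRNAs of possible targets in pineapple were not analysed here.

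The mature sequences are shown because the members differ by so few bases that the comparison between them turns on those bases. Capitals mark the seed, bases 2 to 8 from the 5′ end.
miR159c-3p: uUGGACUGaagggagcucccu
miR159a-3p: aUUGGACUgaagggagcuccu
miR159b-3p: aUUGGACUgaagggagcucc
miR159j-3p: uUUGGAUUgaagggagcucug
miR159e-3p: cUUGGAUUgaagggagcuccu
miR159b-5p: aGCUCCAUucgguccaauaa
miR319b-3p: uGGACUGAagggagcuccuaa

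miR159a-3p and miR159b-3p share a seed, and miR159b-3p is miR159a-3p without its last base. miR159j-3p and miR159e-3p share another seed, which no other listed sequence has. miR159c-3p starts 1 base further in than miR159a-3p, so that its seed is its own although 19 bases run through both. The list gives miR159c-3p the names miR319a-3p and miR319d-3p as well, so its counts stand for both families by name. They cannot be credited to miR159 rather than to miR319, and the family here means the 6 members by name. All 5 members from the 3′ arm hold the 12-base stretch ugaagggagcuc, which 9 of the 190 listed sequences hold (4.737%). With positions counted from the 5′ end of miR159c-3p, the base just before that stretch gives C6U in both miR159j-3p and miR159e-3p, and no difference in miR159a-3p, miR159b-3p or miR319b-3p. miR159b-5p is from the opposite arm of its precursor and holds none of this. By bases shared without a break, miR159a-3p was nearer to miR319b-3p (19 bases) than to miR159j-3p (12 bases). Which targets each member acts on in pineapple was not tested. How reads that match several of these near-identical sequences were assigned is not given in the sources used here, so the split of counts between miR159a-3p, miR159b-3p and miR159c-3p is uncertain to that extent.

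Libraries held between 18581 counts, in ethephon replicate 2 of day 5, and 91791 counts in listed miRs, with a median of 61482. Sequencing tags ran from 10187012 to 19683245 per library. Levels are given as edgeR's CPM, counts scaled to a common total of listed miRs and adjusted by trimmed mean of M-values (TMM) factors, and differences as log2 fold changes, ethephon over water, with their standard error (SE). The quasi-likelihood test of edgeR was run on the 57 sequences with enough counts, which include 5 of the 6 members, and a sequence was called where its p, adjusted over them by Benjamini-Hochberg, was under 0.05. In whole apices, fewer cells of a type and less of a miR in each cell cannot be told apart.

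miR159c-3p was the most abundant listed miR with 1116792 counts over all libraries, 37.97% of all counts. miR159j-3p followed with 805721 counts (27.39%), then miR159a-3p with 132714 (4.512%) and miR159b-3p with 47876 (1.628%). miR159e-3p held 832 counts, at least 1 in each of the 48 libraries and at most 39. miR159b-5p held 21 counts in 15 libraries, against 47876 for the 3′ arm of the same name. All members were 20 or 21 bases long. How evenly different sequences entered the libraries was not tested, so this ranking and the shares below are of counts.

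The order of the first pair was the least stable. miR159c-3p outnumbered miR159j-3p in 23 of 24 ethephon libraries and in 17 of 24 water libraries. miR159j-3p outnumbered miR159a-3p, miR159a-3p outnumbered miR159b-3p, and miR159b-3p outnumbered miR159e-3p in each of the 24 ethephon and 24 water libraries. The family took 70.1% ± 4.52 of counts in ethephon libraries and 72.8% ± 4.23 in water libraries (SD, n = 24 each). Much of this was miR159c-3p, which is also listed under miR319 names (54.4% of member counts in ethephon and 52.2% in water libraries). Without miR159c-3p the members took 31.8% ± 3.80 of counts in ethephon and 34.6% ± 4.34 in water libraries. As a share of all sequencing tags the whole family was 0.279% ± 0.0752 in ethephon and 0.339% ± 0.0582 in water libraries. Listed miRs as a whole were 0.395% ± 0.0909 of tags in ethephon and 0.466% ± 0.0771 in water libraries, so both were lower in ethephon on that scale. These shares are descriptions, with no test.

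**Figure D1:**
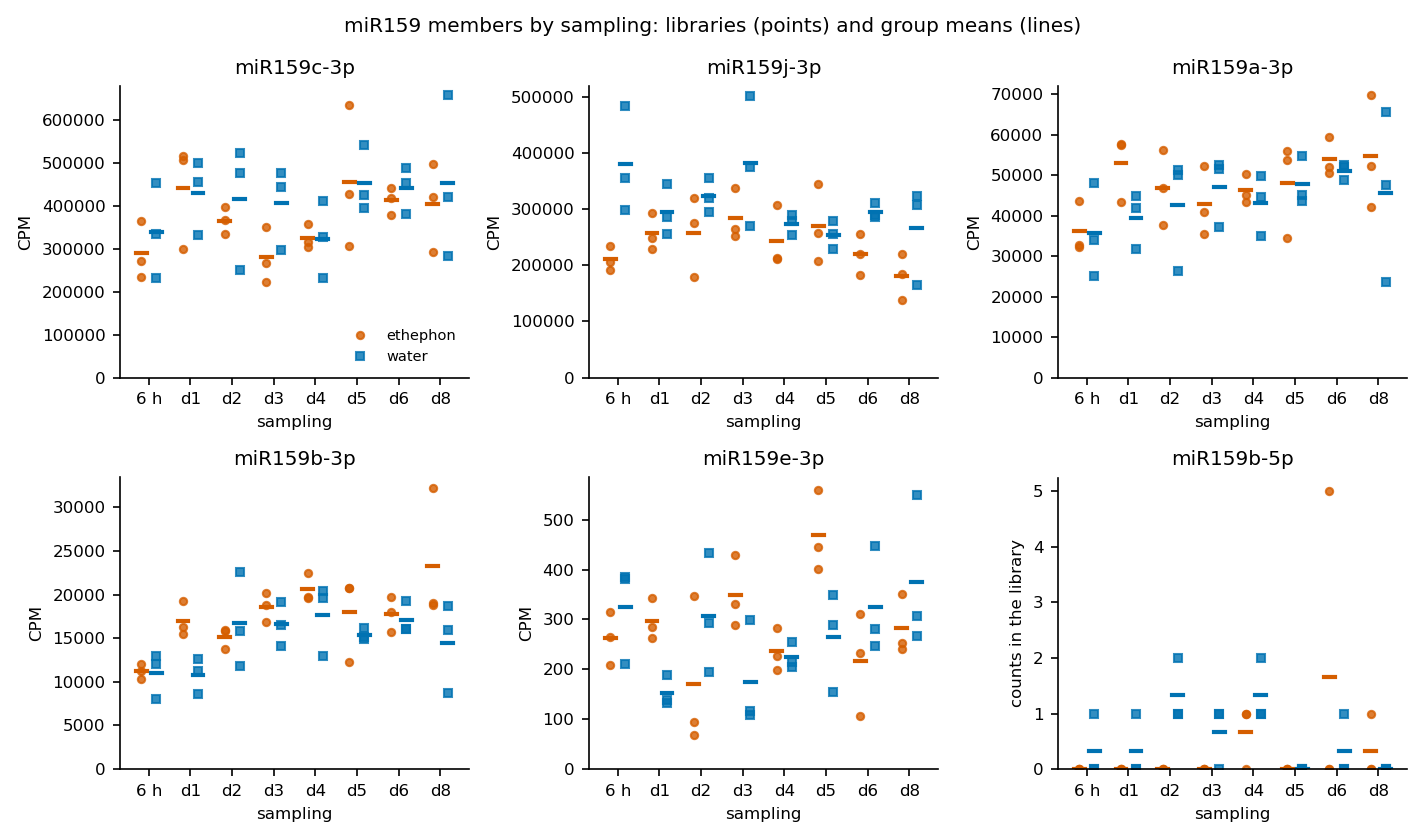
Each panel plots a member by sampling (6 hours, days 1 to 6, day 8), with libraries as points and the mean of 3 libraries as a line, in CPM except for miR159b-5p, in counts. miR159j-3p was lower in all 3 ethephon libraries than in any water library at 6 hours and at day 6, while miR159c-3p overlapped between treatments at each of the 8 samplings.

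Averaged over the 8 samplings, ethephon apices had less miR159j-3p and more miR159b-3p than water apices. These were 2 of the 5 members tested, beside 24 of all 57 sequences (42.1%), of which 11 rose and 13 fell. miR159a-3p, miR159c-3p and miR159e-3p did not pass the test. The share of members called was therefore close to that of all sequences tested.

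miR159j-3p ran from 138447 to 344410 CPM in ethephon libraries, with a median of 231269, and from 165419 to 500584 in water libraries, with a median of 292637. The means were 240225 ± 52820 CPM in ethephon and 308512 ± 71826 CPM in water libraries (SD, n = 24 each). The treatments overlapped widely over all samplings, yet the mean was lower in ethephon at 7 of the 8 samplings. The averaged log2 fold change was -0.36 ± 0.08 (SE), 0.78-fold, with an adjusted p of 0.000417 in edgeR.

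miR159b-3p ran from 10323 to 32220 CPM in ethephon libraries, with a median of 18401, and from 7988 to 22540 in water libraries, with a median of 15475. The fitted change was upward at 7 of the 8 samplings. The averaged log2 fold change was 0.24 ± 0.08, 1.18-fold, with an adjusted p of 0.0205 in edgeR. It did not pass on the scale of all sequencing tags (0.14, adjusted p = 0.346), without the count filter (0.19, adjusted p = 0.0858) or without replicate 1 of each group (0.13, adjusted p = 0.307).

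miR159a-3p, which differs from miR159b-3p only by its last base, averaged 47747 ± 9545 CPM in ethephon and 44051 ± 10415 CPM in water libraries. Its log2 fold change was 0.11 ± 0.09 (adjusted p = 0.350 in edgeR). With no TMM factor it was 0.27 with an adjusted p of 0.000324. miR159c-3p averaged 372378 ± 99053 CPM in ethephon and 408556 ± 106288 CPM in water libraries, a log2 fold change of -0.15 ± 0.10 (adjusted p = 0.293). It passed without replicate 1 of each group (-0.27, adjusted p = 0.0115) and was near 0 with no TMM factor (0.00403), so no direction is given for it. miR159e-3p, at 285 ± 112 CPM in ethephon and 269 ± 113 CPM in water libraries, had a log2 fold change of 0.11 ± 0.15 (adjusted p = 0.626).

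The values of the members moved with the scale. With libraries scaled by all their sequencing tags, the median fold change of the 57 sequences lay 0.12 lower on the log2 scale (a shift of -0.12) than under TMM factors, and with no TMM factor it lay 0.12 higher. Calls split into 6 higher and 15 lower on the tag scale and into 14 higher and 11 lower with no factor, beside 11 higher and 13 lower with TMM factors. miR159j-3p was lower and called on each of the 5 scales tried, with log2 fold changes between -0.46 and -0.22. miR159b-3p was higher on each, from 0.14 to 0.38, and called on 4. miR159c-3p was positive only with no factor and miR159e-3p negative only on the tag scale (-0.00805).

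**Figure D2:**
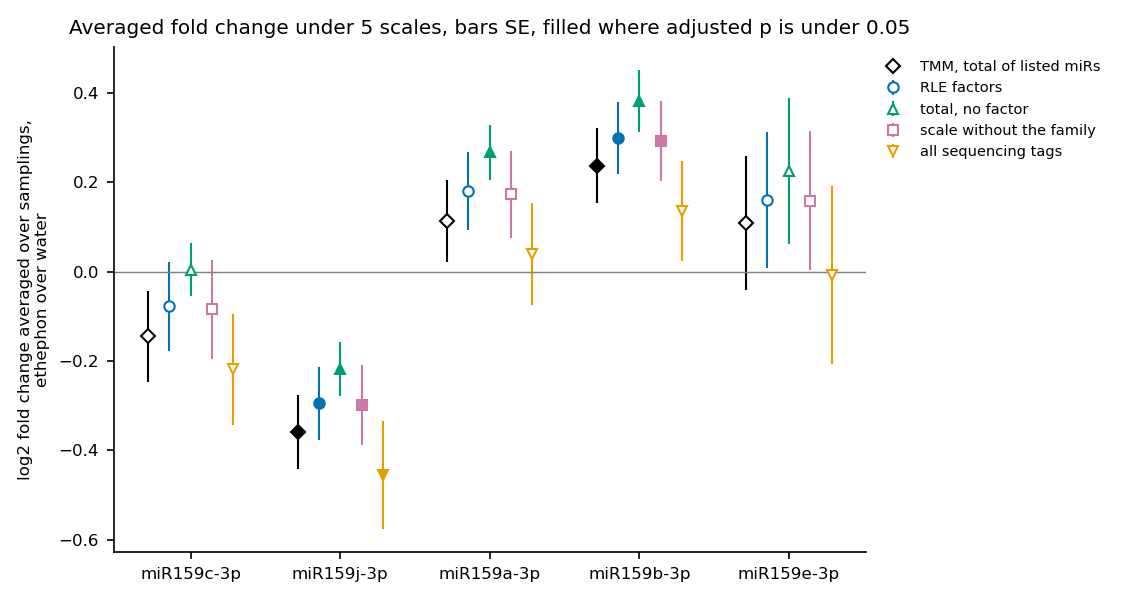
The averaged log2 fold change of ethephon over water is plotted for 5 members under 5 scales, with SE as bars and filled symbols where the adjusted p was under 0.05. All 5 symbols of miR159j-3p are filled and lie below 0, at -0.46 to -0.22, and 4 of the 5 of miR159b-3p are filled and above 0.

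A comparison of members with each other does not rest on the scale of the libraries. Each was therefore set against the counts of miR159c-3p in the same fit. Relative to miR159c-3p, 20 of 56 other sequences were called (35.7%), among them 2 of 4 members. miR159a-3p was higher in ethephon by 0.27 ± 0.07 on the log2 scale (adjusted p = 0.00371 in edgeR), and miR159b-3p by 0.38 ± 0.09 (adjusted p = 0.00128). miR159j-3p, at -0.23 ± 0.11 (adjusted p = 0.0807), and miR159e-3p, at 0.20 ± 0.20 (adjusted p = 0.527), did not pass. The call of miR159a-3p was lost without the count filter (adjusted p = 0.0851) and without replicate 2 (0.109) or replicate 3 (0.0994) of each group. That of miR159b-3p was lost without replicate 3 (0.0519).

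The ratio of miR159a-3p to miR159c-3p within a library, taken without a model, averaged 0.131 ± 0.0177 in ethephon and 0.109 ± 0.0156 in water libraries (SD, n = 24 each). Its mean was higher in ethephon at all 8 samplings. At 5 of them, 6 hours and days 1, 2, 3 and 8, the 3 ethephon libraries lay above the 3 water libraries. Over all 56 sequences and 8 samplings, ratios to miR159c-3p did not overlap in 18.1% of comparisons.

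On day 3 the ratio of miR159a-3p to miR159c-3p was 0.149, 0.159 and 0.153 in ethephon libraries and 0.110, 0.125 and 0.116 in water libraries. On day 8 it was 0.140, 0.124 and 0.144 in ethephon libraries, against 0.0996, 0.0831 and 0.113 in water libraries. The lowest ethephon library thus exceeded the highest water library on both days. These 2 molecules share an unbroken run of 19 bases, start 1 base apart and differ by C20U near the 3′ end.

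Relative to miR159a-3p, a reference added after the data were seen, 23 of 56 sequences were called (41.1%). miR159j-3p was lower in ethephon by 0.50 on this scale (log2 fold change -0.50 ± 0.09, adjusted p = 1.12e-05 in edgeR) and miR159c-3p was lower as well (-0.26 ± 0.06, adjusted p = 0.000125). The latter is the pair given above with miR159c-3p as the reference, and not a further result. The fit without the count filter and the omission of replicates were tried only relative to miR159c-3p. miR159b-3p did not differ detectably from miR159a-3p (0.11 ± 0.08, adjusted p = 0.227), nor did miR159e-3p (-0.08 ± 0.18, adjusted p = 0.763). The pair with one seed and one missing end base was thus not separated by the averaged test.

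Relative to miR159j-3p, also added, 27 of 56 sequences were called (48.2%), 24 of them upward. miR159a-3p stood at 0.49 ± 0.10 (adjusted p = 4.57e-05 in edgeR) and miR159b-3p at 0.61 ± 0.11 (adjusted p = 2.72e-06). miR159e-3p, which has the seed of miR159j-3p, was higher relative to it by 0.44 ± 0.16 (adjusted p = 0.0224). miR159c-3p stood at 0.23 ± 0.10 (adjusted p = 0.0661). In all, 9 pairs of members were compared, some with either member as the reference, and p-values were adjusted over all sequences of each fit.

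The ratio of miR159j-3p to miR159a-3p ran from 3.15 to 7.45 in ethephon libraries, with a median of 4.79, and from 4.93 to 13.5 in water libraries, with a median of 6.43. At 6 hours it was 4.71, 5.93 and 7.12 in ethephon libraries, against 11.9, 10.0 and 10.5 in water libraries. At day 8 it was 3.15, 3.53 and 3.28 in ethephon libraries, against 4.93, 7.01 and 6.47 in water libraries. The treatments did not overlap at 6 hours or on days 1, 6 and 8, each time with ethephon below. On day 1 the highest ethephon library (6.73) and the lowest water library (6.78) were nearly equal. On day 5 the ethephon mean was the higher (5.82 ± 1.82 in ethephon and 5.34 ± 0.461 in water, SD, n = 3). Ratios to miR159a-3p did not overlap in 22.5% of comparisons over all sequences, and ratios to miR159j-3p in 27.5%.

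**Figure D3:**
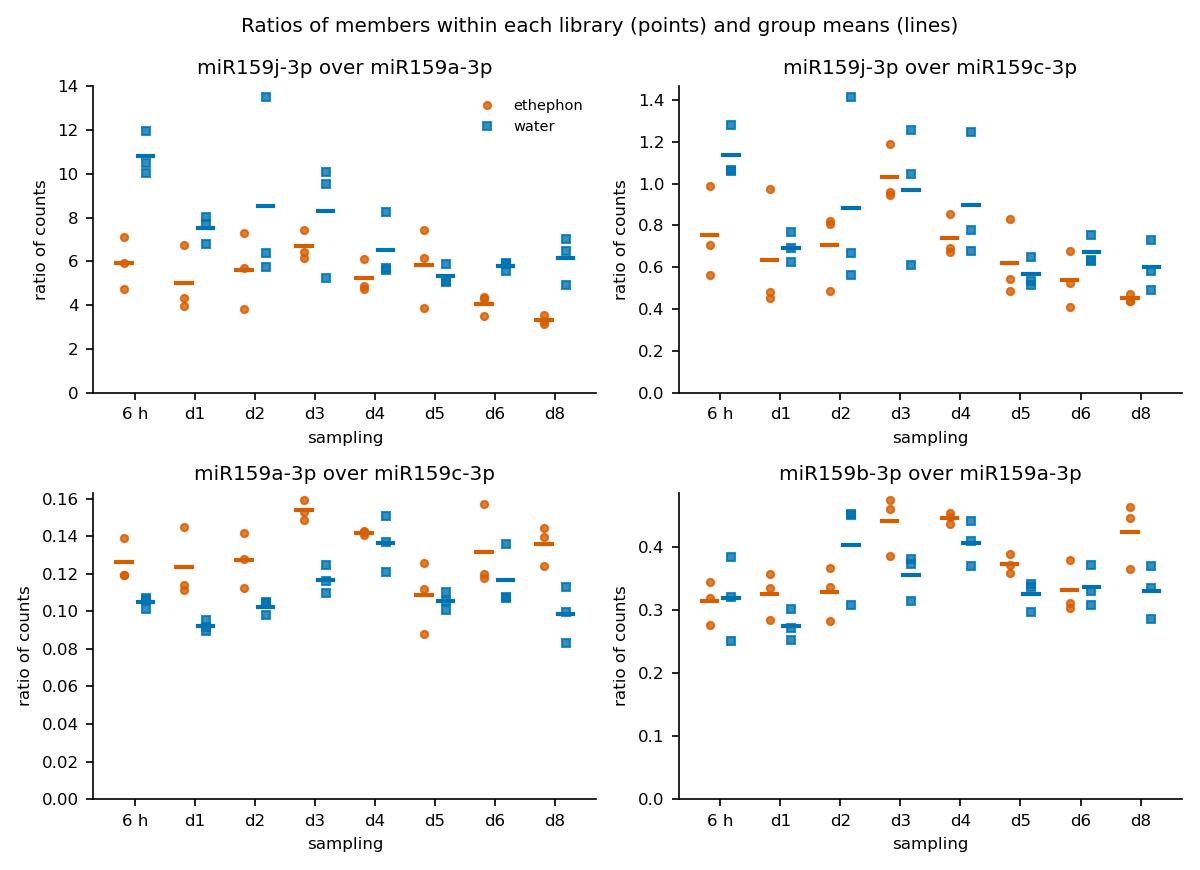
Each panel plots the ratio of counts of 2 members by sampling, with libraries as points and the mean of 3 as a line. The ratio of miR159j-3p to miR159a-3p lies between 4.71 and 7.12 in ethephon libraries at 6 hours, below all water libraries, and that of miR159a-3p to miR159c-3p is higher in ethephon at all 8 samplings by its mean.

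Within the family, miR159j-3p made up 35.8% ± 7.05 of member counts in ethephon libraries and 40.1% ± 7.49 in water libraries (SD, n = 24 each). The 3 members with a C before the shared stretch, miR159a-3p, miR159b-3p and miR159c-3p, together made up 64.1% ± 7.06 in ethephon and 59.8% ± 7.49 in water libraries. miR319b-3p, not a member, has that C as well, so this grouping does not follow the family names. miR159j-3p and miR159e-3p made up nearly all the rest. The share of the 3 members thus mirrors that of miR159j-3p and is not a further result. miR159c-3p alone was 54.4% ± 6.62 in ethephon and 52.2% ± 6.96 in water libraries. miR159a-3p was 7.07% ± 0.840 in ethephon and 5.66% ± 0.804 in water libraries.

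At single samplings the members passed the test in 2 cases, miR159j-3p at 6 hours and miR159b-3p on day 8. Over all 57 sequences the calls at 6 hours were 6 (10.5%) and on day 8 they were 18 (31.6%). No member passed on day 1, with 2 calls over all sequences (3.51%), on day 2, with 3 (5.26%), on day 3, with 8 (14.0%), on day 4, with 5 (8.77%), on day 5, with 7 (12.3%), or on day 6, with 2 (3.51%).

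At 6 hours miR159j-3p stood at 205085, 191655 and 233506 CPM in ethephon libraries, against 298760, 483096 and 355909 CPM in water libraries. The groups did not overlap, and water replicate 2 was the highest of the 6. The log2 fold change was -0.85 ± 0.24, 0.554-fold, with an adjusted p of 0.0158 in edgeR. Without water replicate 2 it was -0.64 (adjusted p = 0.145) and without ethephon replicate 2 it was -0.79 (adjusted p = 0.0539). It did not pass with no TMM factor (-0.48, adjusted p = 0.0628), on the tag scale (-0.81, adjusted p = 0.207) or with a filter of 1 CPM in 3 libraries (-0.65, adjusted p = 0.0935). Nor did it pass without replicate 2 or without replicate 3 of each group. The call was kept under 12 alternatives and lost under 7.

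On day 6 miR159j-3p stood at 255660, 181849 and 219513 CPM in ethephon libraries, against 289003, 285995 and 311126 CPM in water libraries. The ethephon libraries again lay below all water libraries, with a log2 fold change of -0.43 ± 0.24 that did not pass (adjusted p = 0.250 in edgeR). On day 8 the values were 219729, 184430 and 138447 CPM in ethephon libraries and 323512, 165419 and 307324 CPM in water libraries. Water replicate 2 lay within the ethephon range there. The log2 fold change on day 8 was -0.55 ± 0.24 (adjusted p = 0.0652) and -0.76 without that library (adjusted p = 0.0330). It passed under 7 of 19 alternatives. Beside that omission these were RLE factors, the size factors of DESeq2 (-0.67, adjusted p = 0.0238 in edgeR), the scale without the family (-0.84, adjusted p = 0.00998), no filter (-0.71, adjusted p = 0.0107), the filter of 1 CPM (-0.84, adjusted p = 0.00481), the omission of ethephon replicate 1 (-0.72, adjusted p = 0.0457) and DESeq2 itself (-0.67, adjusted p = 0.0172).

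On day 8 miR159b-3p stood at 32220, 18991 and 18771 CPM in ethephon libraries, against 18677, 8723 and 15911 CPM in water libraries. The lowest ethephon library and the highest water library were nearly equal. The log2 fold change was 0.69 ± 0.24, 1.62-fold, with an adjusted p of 0.0230 in edgeR. It did not pass without ethephon replicate 1, the highest (0.39, adjusted p = 0.278), without water replicate 2, the lowest (0.47, adjusted p = 0.170), or in a fit of these 6 libraries alone (0.56, adjusted p = 0.138). On the scale set without the family it was 0.39 (adjusted p = 0.253), on the tag scale 0.51 (adjusted p = 0.268), without a filter 0.53 (adjusted p = 0.109) and with the filter of 1 CPM 0.38 (adjusted p = 0.281). Nor did it pass without replicate 1 or without replicate 2 of each group. The call was kept under 10 alternatives and lost under 9.

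On day 1 miR159b-3p stood at 15515, 16302 and 19264 CPM in ethephon libraries, against 8580, 11273 and 12654 CPM in water libraries. The groups did not overlap. The log2 fold change of 0.65 ± 0.24 did not pass (adjusted p = 0.0881 in edgeR). It passed under 5 of 19 alternatives, which were RLE factors (0.79, adjusted p = 0.0229), no TMM factor (0.67, adjusted p = 0.0253), the scale without the family (0.87, adjusted p = 0.0264), the filter of 1 CPM (0.80, adjusted p = 0.0254) and DESeq2 (0.79, adjusted p = 0.0171).

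miR159e-3p was the member whose fitted change ran widest, from -0.72 on day 2 to 1.02 on day 3, on low counts. On day 3 its counts were 37, 24 and 29 in ethephon libraries, against 4, 14 and 9 in water libraries, or 428, 290 and 332 CPM in ethephon and 109, 298 and 117 CPM in water. Water replicate 2 reached into the ethephon range, and the log2 fold change of 1.02 ± 0.43 did not pass (adjusted p = 0.0967 in edgeR). Without that library it was 1.60 (adjusted p = 0.0293). Without replicate 2 of each group miR159e-3p was called on day 3 and also on day 2. The day 2 counts were 4, 22 and 2 in ethephon libraries, against 39, 17 and 8 in water libraries.

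On day 1 miR159e-3p had 19, 17 and 12 counts in ethephon libraries, against 8, 7 and 7 in water libraries. In CPM these were 343, 262 and 284 in ethephon and 189, 139 and 132 in water, without overlap. On day 5 they were 401, 560 and 445 CPM in ethephon and 154, 349 and 289 CPM in water, again without overlap, and the 560 CPM of ethephon replicate 2 rested on 12 counts. The log2 fold changes of 0.96 ± 0.47 on day 1 (adjusted p = 0.263 in edgeR) and 0.79 ± 0.41 on day 5 (adjusted p = 0.193) did not pass.

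Over the 5 members and 8 samplings, the 3 ethephon libraries and the 3 water libraries did not overlap in 6 of 40 comparisons, 4 with ethephon higher and 2 with ethephon lower. Over all sequences this was so in 119 of 456 (26.1%), and the share among members was not above that. miR159a-3p and miR159c-3p overlapped at each sampling. The fitted change of miR159a-3p ran from -0.13 on day 3 to 0.42 on day 1, and that of miR159c-3p from -0.54 on day 3 to 0.04 on day 1.

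**Figure D4:**
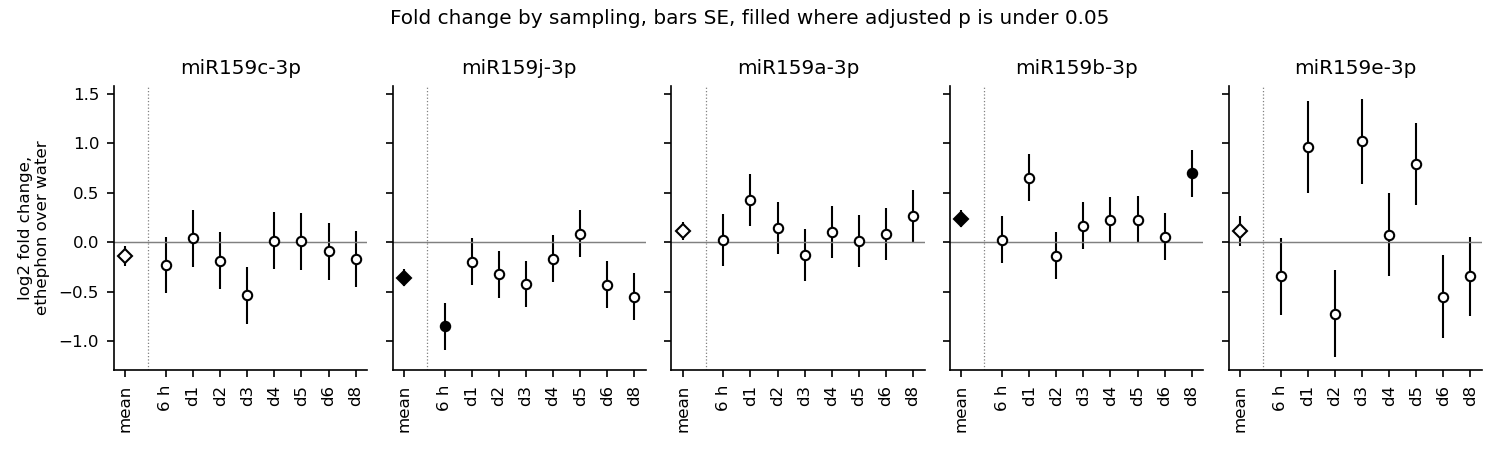
Each panel plots the log2 fold change of ethephon over water for a member, first averaged over samplings (diamond) and then at each sampling, with SE as bars and filled symbols where the adjusted p was under 0.05. Filled symbols are seen for miR159j-3p at the average and at 6 hours and for miR159b-3p at the average and on day 8.

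Whether the ethephon effect changed between samplings was asked by an F test for each member, and none of the 5 passed, beside 1 of all 57 sequences (1.75%). The smallest adjusted p was that of miR159e-3p (0.122 in edgeR), and those of miR159b-3p and miR159j-3p were 0.360 and 0.384. An effect called at 6 hours or day 8 alone was therefore not shown to differ from that at other samplings.

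Over the 8 samplings within a treatment, miR159b-3p was the only member called as changing, with all replicates in the fit. Processing of the first sampling ended later in the day, so handling and time since treatment cannot be told apart there. In ethephon apices the mean of miR159b-3p was lowest at 6 hours, at 11207 ± 840 CPM, and highest on day 8, at 23327 ± 7702 CPM (SD, n = 3). The change in ethephon apices passed (adjusted p = 0.0181 in edgeR), beside 29 of 57 sequences (50.9%). In water apices its mean was lowest on day 1, at 10836 ± 2072 CPM, and highest on day 4, at 17670 ± 4079 CPM. That change passed as well (adjusted p = 0.0462), beside 27 of 57 sequences (47.4%), but not with replicate number as a block (adjusted p = 0.0547), on the tag scale (adjusted p = 0.0772) or without a filter (adjusted p = 0.0719).

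The other 4 members did not pass in either treatment. For miR159j-3p the adjusted p was 0.202 in ethephon and 0.156 in water apices, and for miR159e-3p 0.186 in ethephon and 0.104 in water apices. miR159c-3p had 0.172 in ethephon and 0.615 in water apices, and miR159a-3p 0.423 in ethephon and 0.635 in water apices (edgeR F tests). Without any one replicate number the change of miR159b-3p was not called in either treatment, with adjusted p between 0.0639 and 0.217 in ethephon and between 0.103 and 0.146 in water apices.

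miR159b-5p was under the count filter. It had 8 counts in 4 of 24 ethephon libraries and 13 counts in 11 of 24 water libraries. Of the 8 ethephon counts, 5 came from replicate 2 of day 6. It had no count in 33 of the 48 libraries, where 3 counts, the limit that a count of 0 allows, would have been 29.7 to 140.0 CPM per library over all 48. The fit without the filter gave no usable estimate for it (log2 fold change -0.87, SE 2039), so a difference between treatments could not be tested. Such limits cover counting error only.

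Among the members, the group means of log2 CPM over the 16 groups were most alike between miR159a-3p and miR159b-3p (Pearson r = 0.78). Those of miR159a-3p and miR159c-3p had r = 0.53, and those of miR159j-3p and miR159a-3p r = -0.42. miR159j-3p and miR159c-3p, the 2 most abundant, had r = 0.02. Group means share the TMM scale and each library's total, so these values describe likeness and carry no p.

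Outside the family, the 3 sequences most like miR159c-3p were miR171a-3p (r = 0.78), miR530a-5p (0.72) and miR168b-3p (0.67). Those most like miR159j-3p were miR160a-5p (0.65), miR171f-3p (0.61) and miR166a-3p (0.51). For miR159b-3p they were miR167a-5p (0.67), miR160a-3p (0.55) and miR171g-3p (0.45), and for miR159a-3p miR160a-3p (0.48), miR530a-5p (0.47) and miR171a-5p (0.43). For miR159e-3p they were miR162a-3p (0.64), miR164b-5p (0.36) and miR396b-5p (0.34).

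Families that act on MYB or TCP factors in other plants were taken as a wider list, miR159, miR319, miR828 and miR858, of which 22 sequences were listed and 8 could be tested. No sequence first named miR828 was listed, and both arms of miR858a had no count. Averaged over samplings 1 of the 8 rose, miR159b-3p, and 2 fell, miR159j-3p and miR319a-5p, beside 11 that rose and 13 that fell of all 57 (42.1% called). The median log2 fold change was -0.07 in the list and -0.05 over all 57 sequences.

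miR319a-5p, the opposite arm of the miR319a precursor, was at 389 ± 201 CPM in ethephon and 515 ± 244 CPM in water libraries (SD, n = 24 each). Its averaged log2 fold change was -0.45 ± 0.16 (adjusted p = 0.0180 in edgeR). The call was lost with no TMM factor (-0.32, adjusted p = 0.104) and without any one replicate number (adjusted p between 0.0565 and 0.0805). The 3′ arm of that name is the sequence counted under miR159c-3p. miR319b-3p, which shares 18 bases with miR159c-3p and starts 1 base further in, was at 452 ± 133 CPM in ethephon and 491 ± 194 CPM in water libraries, and did not pass (adjusted p = 0.664). miR319d-5p, at 92.7 ± 44.8 CPM in ethephon and 105 ± 67.4 CPM in water libraries, did not pass either (adjusted p = 0.894). The 4 other miR159 sequences with counts were miR159f-3p with 8, miR159d-3p with 2 and miR159g-5p and miR159h-3p with 1 each.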

How the data were processed

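Per the labels and the study's methods, small RNA libraries were made from total RNA of pooled apices. The authors removed adapters, collapsed identical reads and aligned the unique sequences to mature miRs of miRBase. The aligner, its mismatch setting and the genome positions of the miR genes were not given in the sources used here. The deposited table holds raw counts of 190 sequences in 48 libraries, from 18581 to 91791 per library. It also holds a score, reads per 10000000 sequencing tags rounded by the authors, used here only to recover the tags of each library. A deposited list of another kind holds sequences and their 253 names.

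A sequence with several names was called by the first. Members were found by exact name. The members, the lists and the named miRs (all members, and for each the 3 other sequences of most like pattern) were chosen with earlier results of these data known. The software was edgeR 4.0.16 under R 4.3.3. filterByExpr (minimum count 10, total 15) kept 57 of 127 sequences with a count, TMM factors were applied to the total of listed miRs, and the 48 libraries entered a single quasi-likelihood fit with 16 group means (common biological coefficient of variation 0.246). Single samplings compared 3 libraries with 3 and drew their spread from all groups. For tests relative to a member, its count was taken as the size of each library, with no TMM factor. The SE was obtained from the log2 fold change and its F statistic. Ratios used raw counts. p-values were adjusted by Benjamini-Hochberg over all sequences of a fit. limma 3.58.1 (voom), DESeq2 1.42.0, other scales, filters, a replicate block and the omission of libraries were tried as alternatives. The code was tested on simulated data. The smallest chi-square per degree of freedom between libraries of a group was 8.15, so no library was counted as a copy.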

Additional observations from a re-analysis of the deposited data

How the results depend on the processing

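The averaged call of miR159j-3p held under all 13 alternatives run for it, with log2 fold changes between -0.39 and -0.31 where replicates were left out. Those of miR159b-3p lay between 0.13 and 0.32. Signs of miR159c-3p (0.00403) and miR319b-3p (0.0553, against -0.09) with no TMM factor and of miR159e-3p on the tag scale (-0.00805) reversed. The fit without ethephon replicate 2 of day 5, the shallowest library, was added after the data were seen and kept 24 calls. Over 40 values of members at single samplings, no called value changed sign under 13 settings, and between 0 and 12 uncalled ones did. The family's share of tags stood at -0.28 (log2, ethephon over water) against -0.05 for its share of counts.

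Counts of calls over all sequences moved beyond 1.5 times as follows. On the tag scale they were 1 at 6 hours, on day 1, day 3 and day 6, 2 on day 4, 14 on day 5, 10 on day 8 and 13 for change over samplings in water. With no TMM factor they were 1 on day 3, 0 on days 4 and 6 (9 and 7 at an unadjusted p under 0.05 in edgeR, against 5 and 2 calls on the main scale and 6 and 1 in DESeq2), 3 on day 5 and 2 for the difference between samplings. Scaled without the family they were 3 on days 3 and 4, 1 on day 6 and 8 for that difference. RLE factors gave 1 on day 6 and 2 for the difference, no filter 1 on days 1 and 6 and 10 for the difference, and a filter of 1 CPM 0 on day 6 (14 at an unadjusted p under 0.05) and 9 for the difference. The 6 libraries alone gave 4 on day 5 and 0 on day 6 (10 unadjusted). limma and DESeq2 each gave 1 on day 6.

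With a replicate block, calls were 4 on day 1, 3 on day 4 and 3 for the difference between samplings, and 24 averaged. The labels describe 3 field replications that each held both treatments, but not that the numbers in titles are these. Deviations of same-numbered libraries correlated between -0.38 and 0.36 (median 0.03), and 7 of 24 pairs exceeded 0.1, so the numbers were not taken to pair libraries. The block ended the call of the change of miR159b-3p in water apices and no other member call of the TMM fit or relative to miR159c-3p. Neither the block, the fit without the filter nor the omission of replicates was run relative to miR159a-3p or miR159j-3p.

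Leaving out replicates gave 20 to 24 calls averaged, 1 to 5 at 6 hours, 1 to 3 on day 1, 1 to 6 on day 2, 2 to 7 on day 3, 0 to 6 on day 4, 0 to 9 on day 5, 1 to 3 on day 6, 2 to 18 on day 8, 0 to 4 for the difference between samplings, 14 to 20 for change in ethephon, 5 to 25 for change in water and 11 to 20 relative to miR159c-3p. Depth limits miR159e-3p, at about 17 counts per library, and miR159b-5p most.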
